A study of Homo sapiens with 16 samples.

Results

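Downstream-of-gene (DoG) transcripts of protein kinase and phosphatase genes were examined in HEK293 cells, an established human embryonic kidney line. Members were chosen by gene symbol alone: a DoG with an FPKM value (fragments scaled to the length of the region and to the reads of the library) was taken when its gene symbol held no hyphen and began with one of the common kinase or phosphatase stems, such as MAPK, CDK, CSNK, DYRK, PPP, PPM1, DUSP or PTP. This gave 76 of the 3139 DoGs measured, and all 76 were tested with no further filter on low values. Each had been listed as a DoG region in at least 1 library, which is itself a filter. There were 41 from kinase families and 35 from phosphatase families, all of protein-coding genes. The hyphen kept out 6 DoGs whose symbols began with such a stem, NEK6 and PPP2CA were left out by name, and CLK1, RPS6KA1 and RPS6KL1 were listed in a library but had no FPKM. The stems also took in partners of the enzymes, such as regulatory subunits, the activator CDK5R1, and CDK5RAP1, which is not a kinase.

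The series compared control cells with cells given 200 mM sorbitol and 100 µg/mL cycloheximide for 9 h (OS+CHX, the DoG-inducing condition), wild type in both cases. Both agents were always given together, so the effects of sorbitol and of cycloheximide cannot be told apart. Where values below are called those of stress libraries or under stress, this combination is meant. RNA came from 4 preparations: conventional acid phenol extraction, hiAGPC (the same reagent with heating, which also brings out semi-extractable RNA), and both fractions of SERIPH, in which the 1st step takes the readily extractable RNA of the aqueous phase and the 2nd step takes the RNA held back in the washed interphase. Each of the 8 groups had 2 biological replicates, 16 libraries in all. By the study's methods both SERIPH fractions come from 1 lysate and the other extractions were run beside them on shared samples, so the preparations of a condition are not independent cultures. By the study's methods the 2nd-step libraries were made from less RNA than those of the 1st step, and the files used here hold readthrough regions and their FPKM but no gene expression, so the cell line could not be checked against marker genes.

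Protein kinases transfer phosphate to serine, threonine or tyrosine residues and phosphatases remove it, and together they carry the cell's answer to hyperosmotic stress through the MAP kinase cascades and, at the level of translation, through phosphorylation of the initiation factor eIF2α. A DoG is made when RNA polymerase II runs past the normal end of a gene, so a DoG of a kinase gene is a long non-coding RNA and its level is no measure of the amount of kinase. Polymerase normally lets go after the cleavage and polyadenylation signal, in most genes the letters AATAAA or its variant ATTAAA shortly before the gene end.

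Those letters were looked for on the gene's strand in the last 50 bases before each listed region. AATAAA stood there for 53 of the 76 members (69.7%), against 53.3% of the 2869 protein-coding DoGs, and ATTAAA for 9 (11.8%), against 16.8%. Either stood there for 60 members (78.9%), against 67.2% of protein-coding DoGs and 65.7% of all DoGs. The stretches below run 5′ to 3′ on the gene's strand from the signal, in capitals, to the last base before the DoG (GRCh38, reference sequence). They were chosen to show the gene ends of DoGs of different behaviour. The first 6 precede DoGs called higher under OS+CHX in the SERIPH 2nd step, of which DYRK1A and CDK12 were called higher in all 4 preparations. The next 2 precede DUSP DoGs, also called higher in all 4 preparations. The last 3 precede DoGs listed in control and in no OS+CHX library, DUSP22 and PTPRF in 1 library each.
DYRK1A: AATAAAtatgctaagctaaa
CSNK1A1: AATAAActggtagcaacgtta
CDK12: AATAAAtgacaaaagaacatc
MAP2K3: ATTAAAaaaaaaaaaaaaaaaaggactaaa
PRKAR1A: AATAAAatataaattaatgtaaacatgtaa
PPP4C: AATAAAagaagaaaaatggtttttgggtt
DUSP5: AATAAAaatagtaaaaggagaaaa
DUSP16: ATTAAAc
DUSP22: AATAAAgggcaacttagccaagtttaa
CSNK1G2: AATAAAagaaaaatgaaaccaaac
PTPRF: AATAAAtgtatttatagtttgttaaaa
The DoGs that follow them lay at chr21:37526359-38031358 (plus strand), chr5:149272982-149492981 (minus), chr17:39567560-39632559 (plus), chr17:21315241-21375240 (plus), chr17:68551320-68796319 (plus), chr16:30085386-30190193 (plus), chr10:110511542-110561541 (plus), chr12:12428282-12473281 (minus), chr6:351356-361355 (plus), chr19:1981340-1991339 (plus) and chr1:43626580-43636579 (plus). Among the 60 members called higher under OS+CHX in the SERIPH 2nd step, 48 had either hexamer and 12 had neither, CDK10, DYRK1B, MAPK9 and PPP1R15B among them, and of the 6 called lower, 4 had AATAAA and 2 (CDK5RAP1 and DUSP11) had neither. A match of letters is a description of the reference sequence and was not tested for use.

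The FPKM of a DoG is an average over 1 region per gene, which for all 76 members was the longest region listed in any library. Median FPKM over the members was 0.08 to 0.105 in the control libraries. Under OS+CHX it was 0.165 and 0.135 in conventional, 0.145 and 0.14 in SERIPH 1st-step, 0.66 and 0.675 in hiAGPC, and 0.94 and 0.955 in SERIPH 2nd-step libraries, beside 0.86 and 0.84 over all DoGs in the last. FPKM is relative to each library's own reads and the depth of a library is not known from these files, so a higher value is a larger share of that library. In these bulk samples, a larger share cannot be told apart into more cells making a transcript or more transcript per cell.

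**Figure D1:**
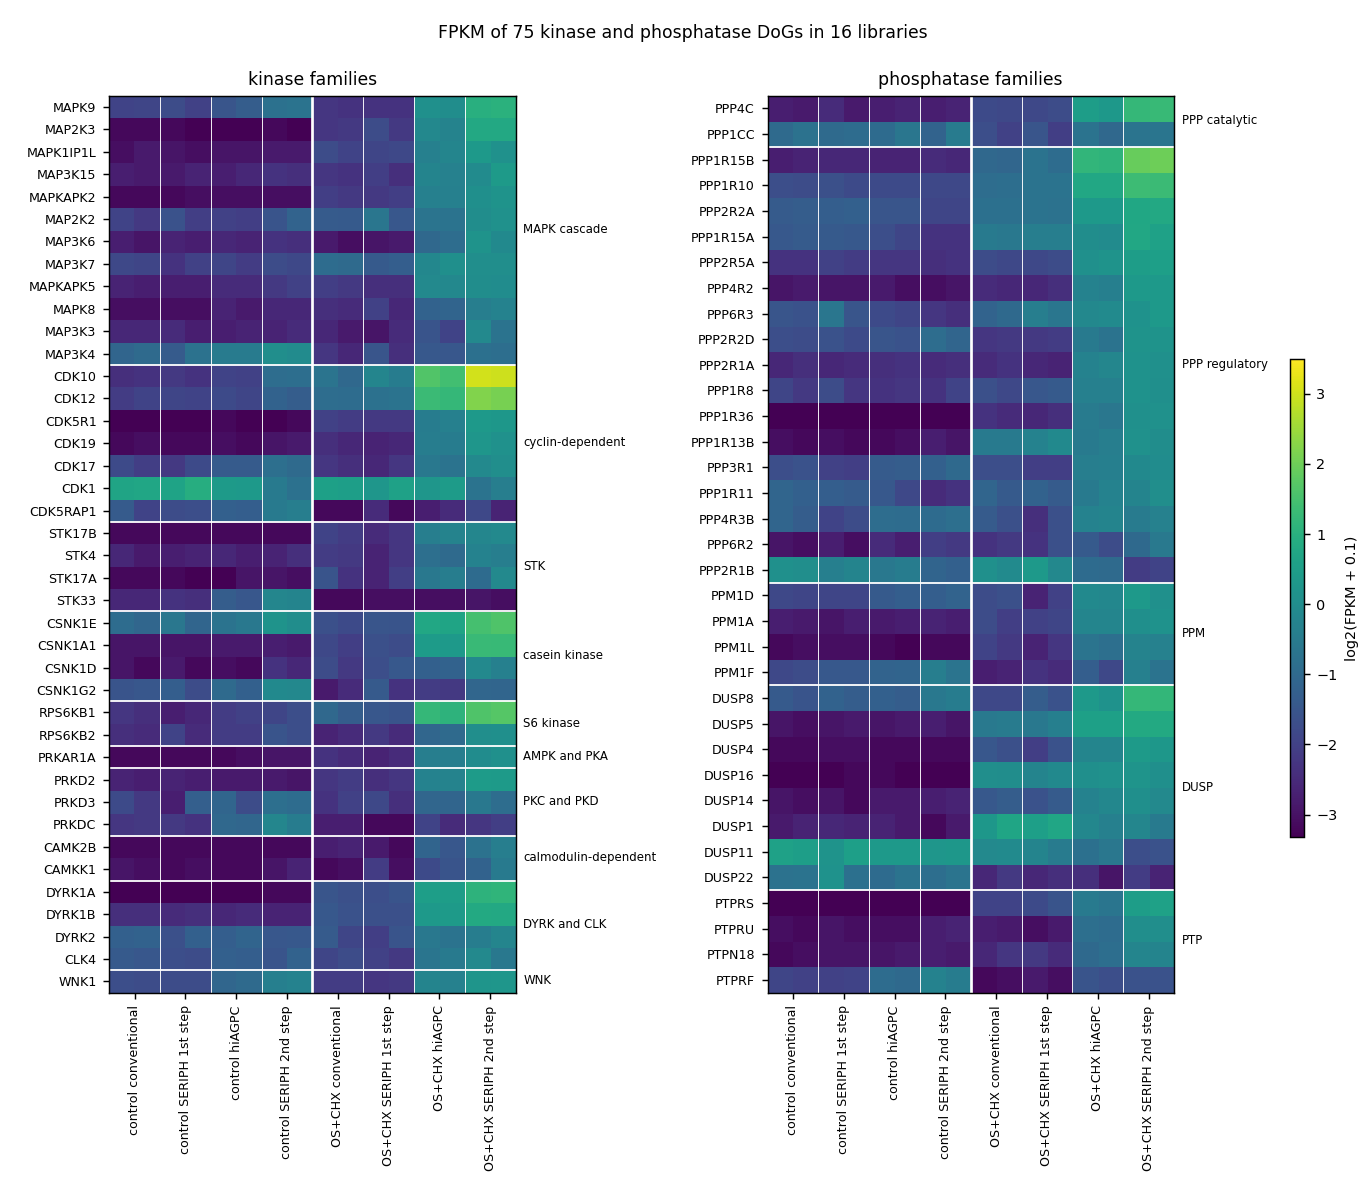
Heat map of log2(FPKM + 0.1) for 75 of the 76 DoGs (rows, grouped by gene family) in the 16 libraries (columns, 2 per group). Under OS+CHX, 54 of the 76 DoGs (71.1%, against 69.6% of all DoGs) were called higher in both hiAGPC and the SERIPH 2nd step. In all 4 preparations 16 of the 76 were (21.1%, against 18.7%). STK33, PRKDC, PTPRF, CSNK1G2 and CDK5RAP1 are brightest in the control SERIPH 2nd-step columns, the group through which they were listed.

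The first question was which of these DoGs differed between OS+CHX and control in each preparation. In the SERIPH 2nd-step fraction, 60 of the 76 members were higher under OS+CHX and 6 were lower, at a limma adjusted p under 0.05 (Benjamini-Hochberg over all DoGs) with a log2 fold change of 1 or more in size. In the text, rose and fell stand for such calls, ± for the SE of a log2 fold change, and each group had n = 2. Of all 3139 DoGs, 74.6% were called higher and 11.7% lower, so the members' shares (78.9% and 7.89%) lay near the background. No control library listed 56 of the members (73.7%, against 74.1% of all DoGs). Those DoGs entered through OS+CHX libraries where they were high, so calling them higher is partly fixed by that entry. The members' median log2 fold change was 2.44 and that of all DoGs 2.38. After centring of each library on its median, which removes that general shift, 17 members were higher and 20 lower. Of the DoGs described singly, CDK1, CDK17, CSNK1E, DUSP8, MAP3K3, MAPK8, MAPK9, PPM1D and WNK1 had a change above 0 that was smaller than the general shift, so its sign turned after centring. In hiAGPC, 54 members were higher and 6 lower (background, 70.2% and 9.14%), with a median of 1.90 against 1.86 over all DoGs, and 11 higher and 18 lower after centring.

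In the readily extractable RNA the change was smaller. In the SERIPH 1st step, 20 members were higher and 2 lower (background, 21.8% and 10.6%), with a median of 0.51 against 0.43 (9 higher and 10 lower after centring). By conventional extraction 19 were higher and 5 lower (background, 22.2% and 11.0%), with a median of 0.52 against 0.44 (8 higher and 12 lower after centring). The fold changes are of log2(FPKM + 0.1), which holds back the change of low values, and median control values were near 0.1. Across preparations, 31 members (40.8%, against 44.8% of all DoGs) were called higher in both the SERIPH 2nd step and hiAGPC and in neither of the other two, and 16 members (21.1%, against 18.7%) were called higher in all 4.

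**Figure D2:**
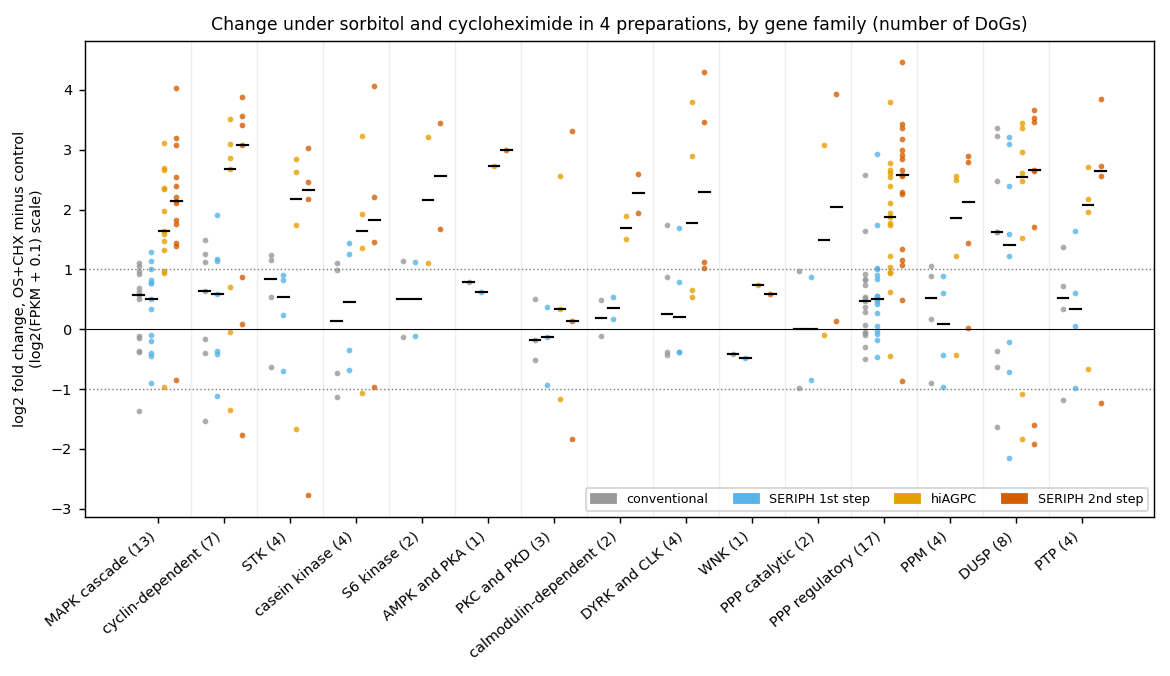
Log2 fold change (OS+CHX minus control, log2(FPKM + 0.1) scale) of each DoG in the 4 preparations, by gene family; points are DoGs, black bars family medians, dotted lines the limits of -1 and 1. Medians of the MAPK cascade are 2.14 in SERIPH 2nd step and 0.51 in 1st step, and those of the DUSP genes, 5 of 8 of which were called higher in all 4 preparations (against 18.7% of all DoGs), are 2.66 and 1.41.

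The MAPK cascade, in which MAP3 kinases activate MAP2 kinases and these activate MAP kinases such as JNK and p38, gave 13 DoGs by symbol stem. The stem also took in MAPKAPK2 and MAPKAPK5, kinases downstream of MAP kinases, and a gene whose product is not a kinase. Under OS+CHX, 12 of them were higher in the SERIPH 2nd step and 0 lower, against 1 higher and 1 lower after centring. For this and the family counts below, the background in the 2nd step was 74.6% higher and 11.7% lower. MAP2K3, which activates p38, changed most. Its FPKM was 0.01 and 0 in control and 1.62 and 1.63 in OS+CHX 2nd-step libraries, while the OS+CHX 1st-step libraries held 0.2 and 0.12. In OS+CHX hiAGPC it had 0.81 and 0.73, and it rose there too (3.12 ± 0.12, limma adjusted p = 7.06e-11). The stress libraries of the 2nd step lay above all others, and the log2 fold change in the 2nd step was 4.04 ± 0.12, limma adjusted p = 4.34e-12.

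MAPK9, a JNK gene, had 0.48 and 0.51 FPKM in the control 2nd step and 1.87 and 1.96 under OS+CHX, but in the 1st step it had 0.2 and 0.15 in control and 0.1 and 0.1 under OS+CHX. It thus rose in the interphase fraction (1.76 ± 0.10, limma adjusted p = 1.78e-09) while its 1st-step values were lower under stress in both libraries, with a log2 fold change of -0.45 ± 0.10 that stayed under the limit of 1. MAPK8, the other JNK gene here, was chosen for mention after its values were seen. It rose by 2.21 ± 0.14, limma adjusted p = 7.29e-09 in the 2nd step, from 0.07 and 0.07 to 0.65 and 0.72 FPKM. Its region was listed in OS+CHX 2nd-step replicate 2 alone.

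Upstream in the cascade, MAP3K3 and MAP3K4 differed. MAP3K3 had 0.06 and 0.08 FPKM in control and 0.83 and 0.5 in OS+CHX 2nd-step libraries (2.14 ± 0.21, limma adjusted p = 6.7e-07). Its region was listed in the first of these OS+CHX libraries alone. MAP3K4 had 0.94 and 0.88 in control and 0.47 and 0.45 under OS+CHX, with a log2 fold change of -0.85 ± 0.24 that missed the limit. It was the member of the cascade not called, its groups did not overlap, and by conventional extraction, where it went from 0.37 and 0.41 to 0.11 and 0.07 FPKM, it fell (-1.37 ± 0.24, limma adjusted p = 0.00024).

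Cyclin-dependent kinases and their partners gave 7 DoGs, of which 4 were higher and 1 lower in the 2nd step, and 3 higher and 3 lower after centring. CDK10 had the highest FPKM of all members. Its values were 0.44 and 0.45 in the control 2nd step, 0.76 and 0.63 in the OS+CHX 1st step, 3.01 and 2.61 in OS+CHX hiAGPC and 8.07 and 7.76 in the OS+CHX 2nd step, which put it at rank 13 of the 3139 DoGs in the last group. The log2 fold change in the 2nd step was 3.88 ± 0.12, limma adjusted p = 6.11e-12. CDK12, a kinase of the RNA polymerase II tail that promotes elongation and was added after its values were seen, came next among them, with 0.34 and 0.3 FPKM in control and 4.5 and 4.21 under OS+CHX (3.41 ± 0.09, limma adjusted p = 1.27e-12); its region reached the gene PPP1R1B on the same strand.

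CDK1, the kinase that drives mitosis, behaved differently. Its DoG was listed in 14 of the 16 libraries and was higher in readily extractable RNA, with 1.47 and 1.55 FPKM in control conventional, 1.46 and 1.8 in control 1st-step and 0.59 and 0.48 in control 2nd-step libraries. Under OS+CHX the 2nd-step values were 0.5 and 0.66, overlapping the control, and the log2 fold change was 0.09 ± 0.14, limma adjusted p = 0.527. CDK5RAP1, which acts on mitochondrial tRNA, had 0.59 and 0.65 FPKM in control and 0.18 and 0.06 in OS+CHX 2nd-step libraries and fell (-1.76 ± 0.27, limma adjusted p = 4.07e-05). CDK17, mentioned after its values were seen, was present in control (0.46 and 0.41) and had 0.82 and 0.94 under OS+CHX, a difference of 0.87 ± 0.15 that stayed under the limit.

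The casein kinase 1 genes, whose products act in Wnt signalling and the circadian clock, gave 4 DoGs, with 3 higher and 0 lower in the 2nd step, and 1 higher and 1 lower after centring. CSNK1A1 rose from 0.05 and 0.04 to 2.36 and 2.3 FPKM (4.07 ± 0.08, limma adjusted p = 1.99e-13). CSNK1E had the highest level of the 4, 2.71 and 3 under OS+CHX, but started from 1.03 and 0.92 in control and so changed less (1.46 ± 0.14, limma adjusted p = 3.42e-07). CSNK1G2 went the other way, from 0.85 and 0.81 in control to 0.38 and 0.37, with a log2 fold change of -0.97 ± 0.24 in the 2nd step that missed the limit and of -1.06 ± 0.24, limma adjusted p = 0.0012 in hiAGPC, where it was called.

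All 4 DoGs of DYRK and CLK kinases, which act on splicing factors among other proteins, were higher in the 2nd step, against 2 higher and 2 lower after centring. DYRK1A on chromosome 21 was listed at 0 and 0 FPKM in control conventional and 0.01 and 0.01 in control 2nd-step libraries, and had 0.21 and 0.24 in the 1st step and 2.04 and 2.12 in the 2nd step under OS+CHX (4.31 ± 0.07, limma adjusted p = 6.32e-14). DYRK1B rose from 0.06 and 0.06 to 1.68 and 1.64 (3.46 ± 0.07, limma adjusted p = 2.78e-13). Both had stress libraries above control ones in every preparation. DYRK1B was not called in the 1st step (0.79 ± 0.07) or by conventional extraction (0.88 ± 0.07), whereas DYRK1A was called in each.

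Other kinase families were small. RPS6KB1, the S6 kinase downstream of mTORC1, rose from 0.17 and 0.21 to 2.99 and 3.16 FPKM in the 2nd step (3.46 ± 0.12, limma adjusted p = 1.28e-11). PRKAR1A, a regulatory subunit of protein kinase A, rose from 0.03 and 0.03 to 0.89 and 0.98 (2.99 ± 0.08, limma adjusted p = 2.33e-12), and PRKD2, a protein kinase D, from 0.04 and 0.03 to 1.25 and 1.22 (3.31 ± 0.08, limma adjusted p = 6.34e-13). Of each, the 2nd-step stress libraries stood above all control libraries. STK17B, a kinase related to the death-associated kinases, rose from 0.01 and 0.01 to 0.77 and 0.82 (3.02 ± 0.09, limma adjusted p = 3.57e-12) and CAMK2B, a calmodulin-dependent kinase, from 0.01 and 0.01 to 0.49 and 0.65 (2.60 ± 0.14, limma adjusted p = 1.55e-09). The CAMK2B region was listed in OS+CHX 2nd-step replicate 2 alone.

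WNK1, a kinase that senses osmotic stress and chloride and controls ion transporters, was not called in the 2nd step. Its DoG was already at 0.67 and 0.71 FPKM in control 2nd-step libraries and reached 1.08 and 1.11 under OS+CHX, a log2 fold change of 0.60 ± 0.07. It was 1 of 10 members not called there, with CDK1, CDK17, CSNK1G2, MAP3K4, PPM1F, PPP1CC, PPP2R1B, PPP4R3B and PRKD3. In the 1st step it had 0.2 and 0.2 in control and 0.11 and 0.12 under OS+CHX. The 2nd-step values were thus higher and the 1st-step values lower under stress, without overlap, and the difference between those changes was 1.08 ± 0.10, limma adjusted p = 5.68e-07.

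Some kinase DoGs were higher in control cells. STK33, a kinase of little-known function, had 0.77 and 0.74 FPKM in control 2nd-step, 0.3 and 0.26 in control hiAGPC and 0.1 and 0.09 in control 1st-step libraries, and only 0.03 and 0.02 in the 2nd step under OS+CHX. It fell (-2.77 ± 0.07, limma adjusted p = 1.46e-12), rank 39 from the lowest of all 3139 DoGs. PRKDC, the catalytic subunit of the DNA-dependent protein kinase that repairs double-strand breaks, had 0.78 and 0.63 in control and 0.11 and 0.14 under OS+CHX 2nd-step libraries (-1.84 ± 0.15, limma adjusted p = 7.27e-08). For both, the control libraries of the 2nd step were above all stress libraries. Both were listed only in control 2nd-step libraries, PRKDC in replicate 1 alone, so they entered through the group where they were high.

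Among the phosphatases, the PPP family of serine and threonine phosphatases, built from few catalytic and many regulatory subunits, gave 2 catalytic and 17 regulatory members. Of the regulatory subunits, 15 were higher in the 2nd step and 0 lower, against 3 higher and 4 lower after centring. PPP1R15B, which brings protein phosphatase 1 to eIF2α and so counters the stress-induced block of translation, had the largest log2 fold change of all members. Its FPKM was 0.08 and 0.07 in control 2nd-step, 0.51 and 0.43 in OS+CHX 1st-step, 2.16 and 2.08 in OS+CHX hiAGPC and 3.66 and 3.85 in OS+CHX 2nd-step libraries. The stress libraries lay above control in all 4 preparations, and the change in the 2nd step was 4.46 ± 0.08, limma adjusted p = 1.21e-13. The region reached GOLT1A, KISS1 and PLEKHA6 on the same strand, so reads of those genes could enter the value. Its stress-inducible paralogue PPP1R15A, added after its values were seen, rose from 0.1 and 0.1 to 1.6 and 1.39 (2.99 ± 0.09, limma adjusted p = 3.95e-12).

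PPP1R10, a subunit that holds protein phosphatase 1 in the nucleus and takes part in transcription termination, rose from 0.18 and 0.18 to 2.46 and 2.43 FPKM in the 2nd step (3.18 ± 0.07, limma adjusted p = 3.65e-13). PPP2R2A, a substrate-choosing subunit of protein phosphatase 2A, rose from 0.17 and 0.17 to 1.57 and 1.65 (2.66 ± 0.07, limma adjusted p = 9.13e-13). The catalytic gene PPP4C rose from 0.05 and 0.06 to 2.25 and 2.3 (3.94 ± 0.11, limma adjusted p = 2.37e-12), whereas the other catalytic gene, PPP1CC, was not called. The scaffold subunit PPP2R1B stood apart. Its DoG had 0.98 and 0.94 in control conventional and 0.36 and 0.33 in control 2nd-step libraries, and under OS+CHX 1.17 and 0.81 in the 1st step but 0.13 and 0.16 in the 2nd, with a change in the 2nd step of -0.86 ± 0.14 that missed the limit. Its region was listed in no 2nd-step library, so it was measured through the other preparations.

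The dual-specificity phosphatases (DUSPs), many of which switch off MAP kinases, gave 8 DoGs, of which 6 were higher and 2 lower in the 2nd step, and 3 higher and 2 lower after centring. Unlike most members, 5 of the 8 (DUSP1, DUSP4, DUSP5, DUSP14 and DUSP16) were called higher in all 4 preparations, against 18.7% of all DoGs. DUSP1, an immediate stress-response gene, had 0.07 and 0.06 FPKM in the control 1st step and 1.33 and 1.53 under OS+CHX, against 0.01 and 0.04 and 0.77 and 0.6 in the 2nd step. Under stress both 1st-step libraries were above both 2nd-step libraries, which among DUSPs held for DUSP11 as well, and it changed by 3.21 ± 0.16, limma adjusted p = 7.08e-09 in the 1st and 2.65 ± 0.16, limma adjusted p = 4.92e-09 in the 2nd step. The DUSP1 region was listed only in OS+CHX conventional libraries and OS+CHX 1st-step replicate 2. DUSP1 was thus measured through groups where it was high, so these p-values and its order of fractions are no independent support. DUSP16, a phosphatase of JNK and p38, was listed at 0 to 0.01 in all control libraries. Under OS+CHX it had 0.94 and 0.92 in conventional, 0.75 and 0.84 in 1st-step, 0.95 and 1 in hiAGPC and 1.05 and 0.96 in 2nd-step libraries, all above every control library.

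DUSP5, a nuclear MAP kinase phosphatase, rose from 0.05 and 0.03 to 1.66 and 1.68 FPKM in the 2nd step (3.66 ± 0.10, limma adjusted p = 1.53e-12) and reached 0.56 and 0.67 in the 1st step (2.40 ± 0.10, limma adjusted p = 1.2e-09). DUSP8 rose in the 2nd step from 0.57 and 0.63 to 2.23 and 2.17 (1.72 ± 0.11, limma adjusted p = 7.22e-09) and had 0.3 and 0.23 in the 1st step under OS+CHX, within or below its control range of 0.34 and 0.3. The members called lower were DUSP11 and DUSP22. DUSP11 acts on RNA ends, and its DoG went from 1.1 and 1.13 to 0.21 and 0.23 (-1.93 ± 0.12, limma adjusted p = 6.01e-09). The region of DUSP11 reached TPRKB on the same strand. DUSP22, an atypical DUSP, went from 0.45 and 0.52 to 0.13 and 0.06 (-1.61 ± 0.28, limma adjusted p = 0.000145), and with CDK5RAP1 it was 1 of 2 members (2.63%, against 6.05% of all DoGs) called lower in all 4 preparations. Its control 1st-step libraries held 1.02 and 0.47, a wide spread, and its region was listed in the first of these alone.

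The remaining phosphatases were the PPM family, metal-dependent enzymes that oppose stress kinases, with 3 of 4 higher and 0 lower in the 2nd step, and the tyrosine phosphatases (PTP), with 3 of 4 higher and 1 lower; after centring 0 and 1 were higher and 1 of each family lower. PPM1D, a p53 target that dampens the DNA damage response, rose from 0.31 and 0.35 to 1.17 and 0.98 FPKM (1.45 ± 0.16, limma adjusted p = 2.25e-06), with a region that reached BCAS3. PTPRS, a receptor-type phosphatase, was listed at 0 FPKM in all 8 control libraries and had 0.19 and 0.24 in the 1st step, 0.59 and 0.53 in hiAGPC and 1.29 and 1.4 in the 2nd step under OS+CHX, where it was called higher in each preparation. PTPRF, another receptor-type phosphatase, moved oppositely, from 0.72 and 0.63 to 0.23 and 0.23 in the 2nd step (-1.23 ± 0.10, limma adjusted p = 5.64e-08).

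**Figure D3:**
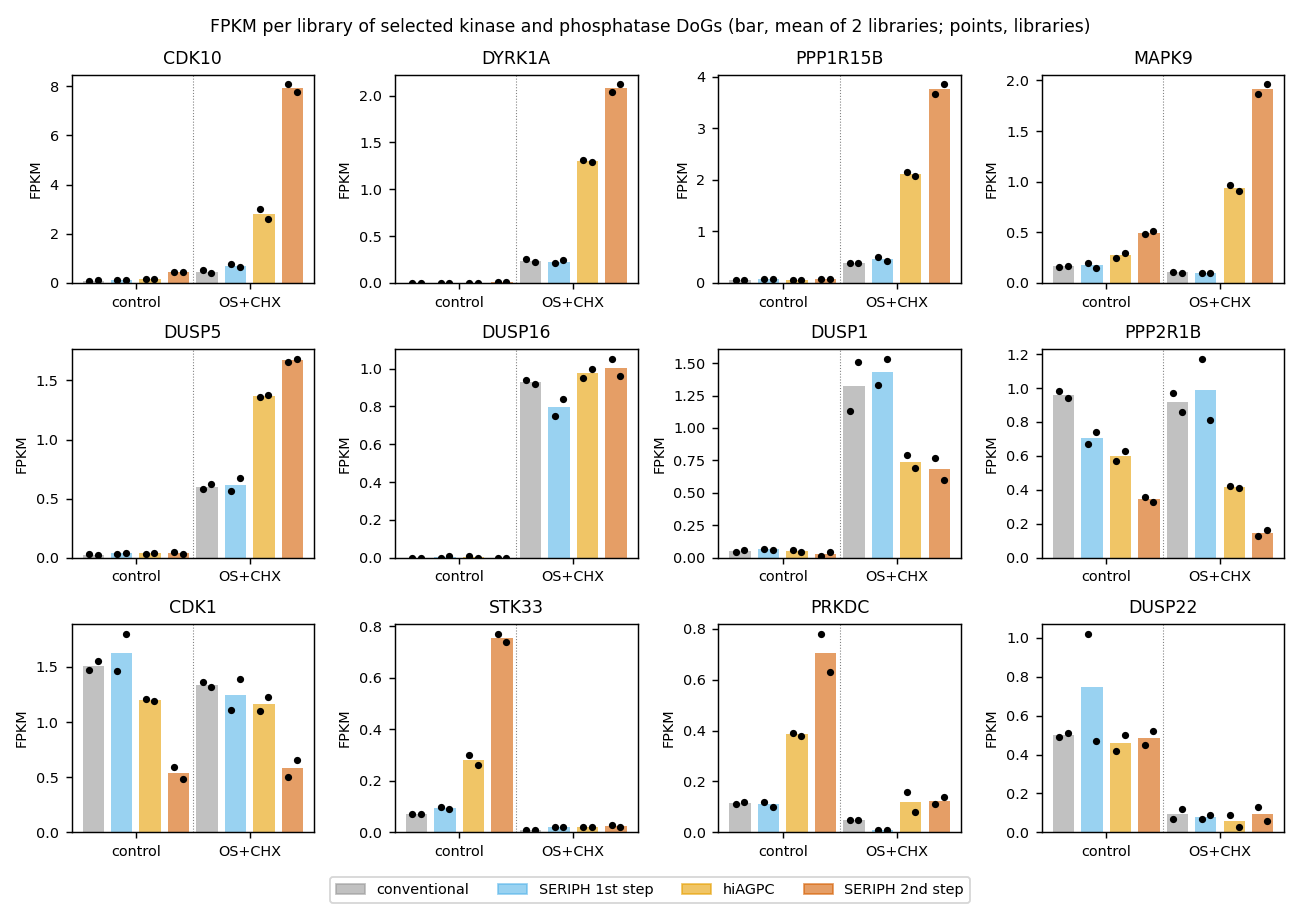
FPKM of 12 DoGs in the 8 groups; bars are means of 2 libraries, points the libraries, and the dotted line parts control from OS+CHX. CDK10, DYRK1A, PPP1R15B, MAPK9 and DUSP5 peak in the OS+CHX SERIPH 2nd step, DUSP16 lies between 0.75 and 1.05 in all OS+CHX libraries, DUSP1, PPP2R1B and CDK1 are higher in 1st-step than 2nd-step libraries, and STK33 and PRKDC peak in the control SERIPH 2nd step.

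The next question was which DoGs had a higher FPKM in the SERIPH 2nd step than in the 1st step. As FPKM is a share of each library, it does not measure what part of a DoG stayed in the interphase. This comparison shares its OS+CHX 2nd-step libraries with the one above. Under OS+CHX, 65 of 76 members were higher in the 2nd step and 2 lower (background, 79.3% and 2.96%), with a median log2 difference of 2.11 against 1.99 over all DoGs, and 6 higher and 11 lower after centring. In control cells, 11 were higher and 3 lower (background, 11.0% and 3.28%), with medians of 0.21 and 0.17, and 7 higher and 5 lower after centring. All 13 DoGs grouped by stem as MAPK cascade were higher in the OS+CHX 2nd step than in the 1st, against 1 after centring.

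The members with the largest log2 difference of 2nd against 1st step under OS+CHX were CDK10 (3.34 ± 0.12, limma adjusted p = 3.97e-11), MAPK9 (3.33 ± 0.10, limma adjusted p = 7.8e-12), RPS6KB1 (3.18 ± 0.12, limma adjusted p = 4.32e-11), CSNK1E (3.10 ± 0.14, limma adjusted p = 2.33e-10) and PPP4C (3.03 ± 0.11, limma adjusted p = 4.23e-11). At the other end, PPP2R1B (-2.14 ± 0.14, limma adjusted p = 8.61e-09) and DUSP11 (-1.29 ± 0.12, limma adjusted p = 3.75e-07) were the members called lower, rank 31 and 79 from the lowest of all DoGs. PPP2R1B and DUSP1 were listed in no 2nd-step library, so their low place here is partly fixed by their entry. CDK1 (-0.99 ± 0.14, limma adjusted p = 2.38e-05) and DUSP1 (-0.97 ± 0.16, limma adjusted p = 9.59e-05) passed the adjusted p but not the fold. Also not called were DUSP16, with a log2 difference of 0.30 ± 0.08, and PPP1R13B, a p53-binding protein, with 0.26 ± 0.10, both singled out after their values were seen; they had risen under OS+CHX in the 1st step by 3.09 and 2.93. After centring these 2 values fell below 0, as did those of CDK5RAP1, CSNK1G2, DUSP5, DUSP22, MAP3K4, MAPK8, PPP1R11, PPP1R15A, PPP2R2A, PPP6R3, PRKDC, PTPRF and STK33.

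In control cells the DoGs called higher in the 2nd step than the 1st were CDK5RAP1, CDK10, CDK17, CSNK1G2, MAP3K4, MAPK9, PRKD3, PRKDC, PTPRF, STK33 and WNK1. STK33 led them (2.13 ± 0.07, limma adjusted p = 1.45e-09), followed by PRKDC (1.93 ± 0.15, limma adjusted p = 6.51e-07), PTPRF (1.60 ± 0.10, limma adjusted p = 1e-07) and CSNK1G2 (1.41 ± 0.24, limma adjusted p = 0.000465). STK33, PRKDC, PTPRF, CSNK1G2 and CDK5RAP1 were listed only in control 2nd-step libraries. They were thus measured through the group where they were high. These p-values, like those of their fall under OS+CHX, are therefore no independent support. Of the 11, CDK5RAP1, CSNK1G2 and STK33 were not called between the fractions under OS+CHX, where STK33 differed by 0.06 ± 0.07. The members called lower in the control 2nd step were CDK1 (-1.44 ± 0.14, limma adjusted p = 5.68e-06), PPP6R3 (-1.24 ± 0.21, limma adjusted p = 0.000387) and PPP1R11 (-1.08 ± 0.16, limma adjusted p = 0.000123), of which PPP6R3 is a subunit of protein phosphatase 6 and PPP1R11 an inhibitor of protein phosphatase 1. Both were singled out after their values were seen. PPP1R11 had 0.31 and 0.29 in the control 1st step against 0.08 and 0.1 in the 2nd, and under OS+CHX 0.34 and 0.29 against 0.75 and 0.93, so that its order of fractions turned, on the FPKM scale as deposited (1.18 ± 0.16, limma adjusted p = 1.17e-05 under OS+CHX).

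**Figure D4:**
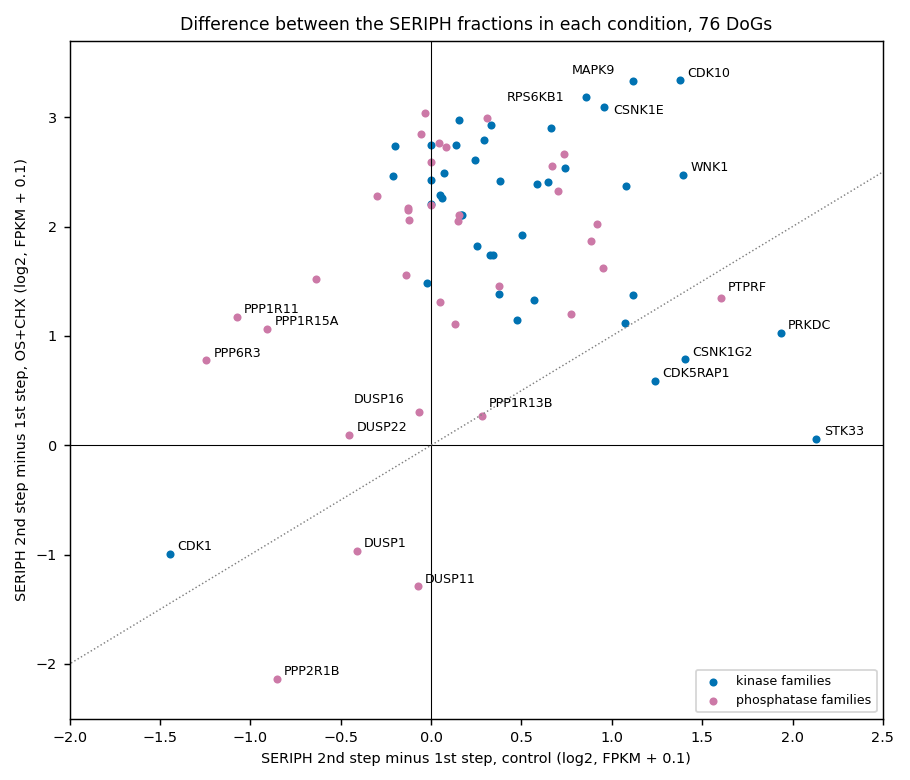
Log2 difference in FPKM + 0.1 between the SERIPH 2nd and 1st step in control (x axis) and under OS+CHX (y axis), 1 point per DoG; the dotted line marks equal values. Most DoGs lie near 0 on the x axis and between 1 and 3 on the y axis, with STK33, PRKDC, CSNK1G2, CDK5RAP1 and PTPRF below the dotted line on the right and PPP2R1B, DUSP11, DUSP1 and CDK1 in the lower left corner.

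Whether the change under OS+CHX differed between the SERIPH fractions was tested directly, as the difference of both changes. It was larger in the 2nd step for 56 members and smaller for 3 (background, 72.9% and 4.21%), with a median of 1.92 against 1.76 over all DoGs, and 4 larger and 17 smaller after centring. The largest were PPP4C (3.07 ± 0.16, limma adjusted p = 2.31e-09) and PRKD2 (2.94 ± 0.11, limma adjusted p = 3.36e-10). The 3 smaller were STK33 (-2.08 ± 0.10, limma adjusted p = 2.07e-09), PPP2R1B (-1.28 ± 0.19, limma adjusted p = 4.3e-05) and DUSP11 (-1.22 ± 0.17, limma adjusted p = 2.33e-05). Of the 17 not called, DUSP16 differed by 0.37 ± 0.12, PPP1R13B by -0.02 ± 0.14 and DUSP1 by -0.56 ± 0.23. The limit of entry given for the fractions holds for these differences too.

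Both unfractionated extractions were compared under OS+CHX as well. In hiAGPC against conventional extraction, 54 members were higher and 0 lower (background, 68.8% and 0.478%), with a median of 1.44 against 1.40 over all DoGs, and 0 higher and 8 lower after centring. At an adjusted p under 0.05 alone, 66 were higher and 3 lower, and 69 had an unadjusted p under 0.05. CSNK1E (2.43 ± 0.14, limma adjusted p = 3.94e-09), CDK10 (2.40 ± 0.12, limma adjusted p = 1.58e-09) and CSNK1A1 (2.35 ± 0.08, limma adjusted p = 9.73e-11) led, and PPP2R1B (-0.98 ± 0.14, limma adjusted p = 2.14e-05), DUSP1 (-0.75 ± 0.16, limma adjusted p = 0.000857) and DUSP11 (-0.63 ± 0.12, limma adjusted p = 0.000328) were at the low end, short of the limit. No OS+CHX hiAGPC library listed PPP2R1B, DUSP1 or DUSP11.

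Between the SERIPH 2nd step and hiAGPC under OS+CHX, 7 members were higher and 1 lower (background, 6.91% and 1.75%), with a median of 0.53 against 0.52, and 0 higher and 3 lower after centring. The 7 were CDK10 (1.46 ± 0.12, limma adjusted p = 2.15e-06), MAP3K3 (1.33 ± 0.21, limma adjusted p = 0.00016), PTPRS (1.13 ± 0.08, limma adjusted p = 1.53e-06), CSNK1G2, RPS6KB2, PPM1F and MAP3K6, and the 1 lower was PPP2R1B (-1.07 ± 0.14, limma adjusted p = 2.83e-05). DUSP11 (-0.93 ± 0.12) and CDK1 (-0.90 ± 0.14) were also below 0 but missed the limit of 1. This comparison shares its 2nd-step libraries with those above. MAP3K3, MAP3K6, RPS6KB2, CSNK1G2 and PPM1F were listed in 2nd-step libraries only. They were thus measured through the fraction where they were high, and PPP2R1B was listed in no 2nd-step library. The p-values of these DoGs are therefore no independent support.

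The region lists gave another view of the same libraries. A DoG region was listed by the authors' caller where readthrough covered at least 10 kb, and 304 of 13532 listed regions were of members. Under OS+CHX the lists held 8 and 9 members in conventional, 9 and 12 in 1st-step, 42 and 43 in hiAGPC and 54 and 62 in 2nd-step libraries; in control they held 4 and 4, 6 and 4, 8 and 8, and 16 and 15. The replicates of the stress hiAGPC and 2nd-step groups did not overlap with control, but with 2 libraries against 2 the exact two-sided permutation p of each of the 8 comparisons was 0.333, the smallest it can give. In both replicates of the OS+CHX 2nd step, 51 members were listed (67.1%, against 64.2% of all DoGs with FPKM), and 40 (52.6%, against 44.5%) in both of hiAGPC.

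DYRK1B was the member listed in all 16 libraries. Listed in all 4 OS+CHX libraries of readily extractable RNA were 6 members, CDK1, DUSP5, DUSP16, DYRK1B, PPP1R10 and PPP2R1B (7.89%, against 7.23% of all DoGs). In both OS+CHX 2nd-step libraries but no OS+CHX hiAGPC library were 9 (11.8%, against 15.9%): CDK5R1, CLK4, MAP3K6, PPP1R13B, PPP2R2D, PPP3R1, PTPN18, PTPRU and RPS6KB2. In both hiAGPC but not both 2nd-step libraries were CDK1, DUSP4 and MAP3K7. No control library listed 56 of the members (73.7%, against 74.1%). The 7 listed in control and in no OS+CHX library (9.21%, against 12.0%) were CDK5RAP1, CSNK1G2, DUSP22, MAP3K4, PRKDC, PTPRF and STK33. Of these, DUSP22, PRKDC and PTPRF were listed in 1 control library each, so by the study's rule of both replicates they were not reproducible. The FPKM of the 7 was lower under OS+CHX in both 2nd-step libraries, which is no separate support, since their regions were listed from control.

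Lengths were compared for the 37 members listed in all 4 OS+CHX hiAGPC and 2nd-step libraries. The median length was 60.0 kb in the 2nd step and 35.0 kb in hiAGPC, the median ratio 1.43 and the geometric mean ratio 1.69, with 30 longer in the 2nd step, 2 shorter and 5 equal by the mean of replicates. Over all 1290 such DoGs the medians were 62.5 and 35.0 kb and the median ratio 1.36. For 16 members each 2nd-step region exceeded each hiAGPC region in length (43.2%, against 46.0%), and no member had both shorter. MAPK9 was listed at 20.0 kb in both hiAGPC and at 125.0 kb in both 2nd-step libraries, DYRK1B at 85.0 kb in both hiAGPC and at 284.095 and 290.0 kb in the 2nd step, and CSNK1A1 at 132.211 kb in both hiAGPC and at 210.0 and 220.0 kb. PPP1R15B, in contrast, had 195.0 and 205.0 kb in hiAGPC and 205.0 and 195.0 kb in the 2nd step.

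**Figure D5:**
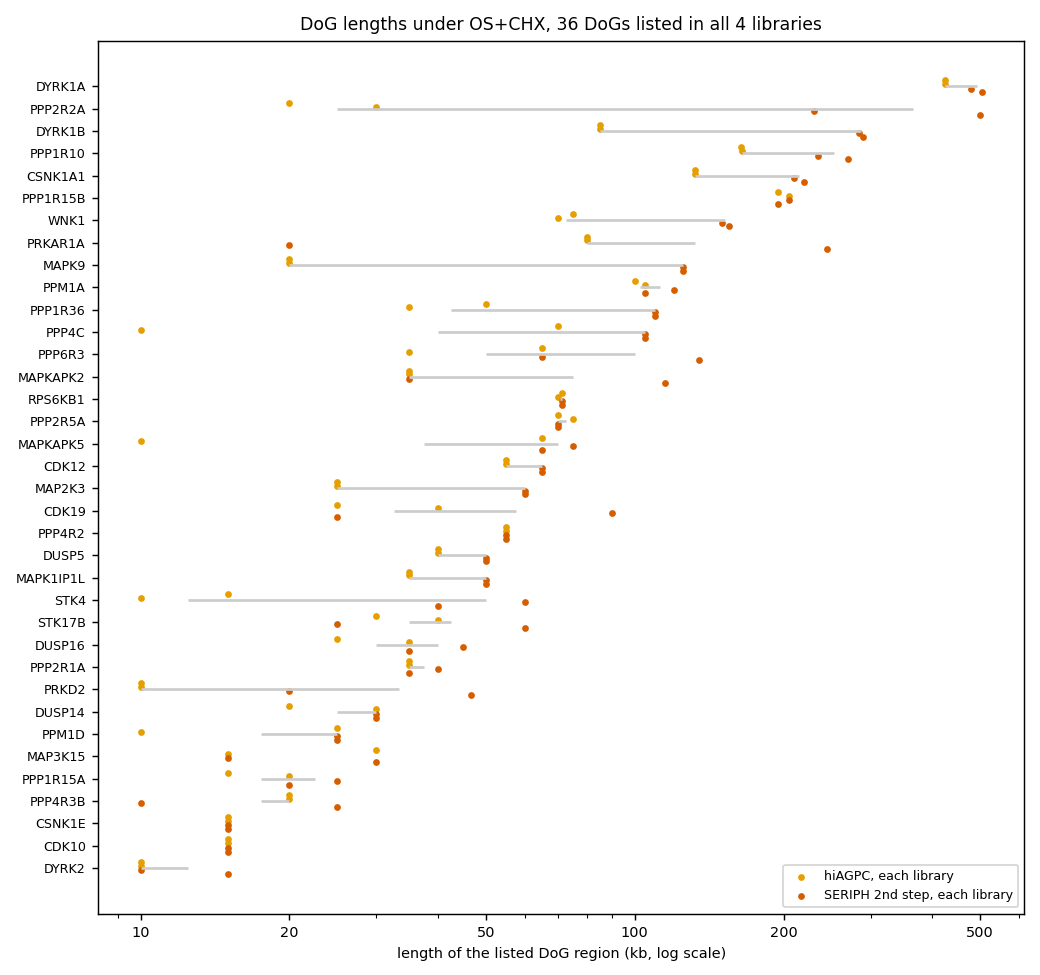
Length of the listed DoG region (kb, log scale) under OS+CHX for 36 of the 37 DoGs listed in all 4 libraries, sorted by mean length in SERIPH 2nd step; points are libraries and grey bars join the means. PPP2R2A, DYRK1B, MAPK9 and WNK1 are longer in both 2nd-step libraries, whereas PPP1R15B, CDK10, CSNK1E and PPP4R2 are not.

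The longest member region was that of DYRK1A (chr21:37526359-38031358), listed at 424.344 and 425.0 kb in hiAGPC and at 480.0 and 505.0 kb in the 2nd step under OS+CHX. PPP2R2A followed with 230.0 and 500.498 kb in the 2nd step against 20.0 and 30.0 kb in hiAGPC. Its longest region reached BNIP3L and DPYSL2 on the same strand and overlapped a DoG listed for DPYSL2 under OS+CHX. PRKAR1A had 20.0 kb in 1 replicate of the 2nd step and 245.0 kb in the other, on either side of the 80.0 kb of both hiAGPC libraries. PPP1R10 had 235.0 and 270.0 kb in the 2nd step and 20.0 to 25.0 kb in the OS+CHX conventional and 1st-step libraries, and DYRK1B was listed at 10.0 kb in each control library. Since FPKM is averaged over the longest region, a short control region is spread thin in it.

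Of the members' longest regions, 16 were 100 kb or longer (21.1%, against 19.4%), and 21 reached a protein-coding gene on the same strand (27.6%, against 20.7%). Reads of such a gene and of the DoG cannot be told apart in these files. Besides CDK12, DUSP11, PPM1D and PPP1R15B, this holds for CSNK1A1 (IL17B), DUSP8 (MOB2), DYRK1B (CLC, EID2), MAPK9 (RASGEF1C), PPP1R10 (GNL1) and PPP1R15A (NUCB1). Also described singly were PPP2R2A (BNIP3L, DPYSL2), PPP4C (CORO1A), PPP6R3 (GAL), PRKD2 (DACT3, GNG8), RPS6KB1 (a gene without a symbol) and WNK1 (ERC1). In a split chosen after seeing the data, the 55 members that reached none gave 41 higher and 5 lower for the OS+CHX change in the 2nd step, with a median log2 fold change of 2.26, and the 21 others gave 19 higher and 1 lower, with 2.85.

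Genes outside these families that act in the same pathways were taken from 3 lists. Of 115 other protein kinases, 26 had a measured DoG, and 21 were higher and 1 (TLK1) lower under OS+CHX in the 2nd step (background, 74.6% and 11.7%), with a median log2 fold change of 2.13 against 2.38 over all DoGs. PLK1 and WEE1 of mitotic entry, ARAF and BRAF of the MAPK cascade (outside its symbol stems) and EIF2AK2, a kinase of eIF2α, were among those higher. Of 43 other phosphatases, 9 were measured and all 9 were higher (median 2.26), CDC25A and CDC25C among them. Of 57 cyclins, CDK inhibitors and kinase-binding proteins, 21 were measured, 17 higher and 1 (AKAP10) lower (median 3.03). After centring, the numbers higher and lower were 2 and 6, 0 and 2, and 7 and 4 for the 3 lists, in that order. In the 1st step they were 3 and 1, 2 and 0, and 6 and 2 (background, 21.8% and 10.6%), and after centring 1 and 4, 1 and 1, and 3 and 4. In the OS+CHX 2nd step against the 1st they were 22 and 0, 8 and 0, and 17 and 0 (background, 79.3% and 2.96%), and after centring 2 and 4, 1 and 1, and 6 and 4.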

How the data were processed

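Ribosomal RNA-depleted, stranded libraries from HEK293 cells were used, 2 biological replicates in each of 8 groups taken from the labels. The authors trimmed reads with fastp 0.25.0, removed ribosomal reads with Bowtie2 2.5.4, aligned uniquely with STAR 2.7.11b to GRCh38 (GENCODE v49), and listed DoG regions per library with ARTDeco (minimum length 10000 bp, window 5000 bp, coverage 0.5, read-in FPKM 1). The deposited FPKM values were made by the authors over 1 region per gene, and the deposited region lists give positions and lengths. The reads used for scaling and the depth of each library are not given in the sources used here, so no counting error is given. The authors compared libraries with DESeq2, whereas FPKM are not counts and were tested here with limma.

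Gene symbols and positions came from GENCODE v44 (3131 of 3139 identifiers found). FPKM was compared as log2(FPKM + 0.1) in limma 3.58.1 (R 4.3.3) with an intensity trend over 16 libraries, and p-values were adjusted by Benjamini-Hochberg within each comparison. The fit was tested on simulated data. By the methods the preparations of a condition share samples, though the labels do not say that equal replicate numbers mark the same one. The deviations of equally numbered libraries correlated at -0.07 to 0.06 over 12 pairs of groups within a condition and at -0.10 to 0.14 over 16 pairs between conditions, 3 of them above 0.1, and the replicate number was used as a block in an alternative fit. Other steps used matplotlib 3.10.9, scipy 1.17.1, pandas 2.3.3, numpy 2.4.6 and Python 3.11.15. Unmapped sample columns numbered 0. Letters at gene ends were read from GRCh38.

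The members, gene lists and tests were chosen with earlier results of these data known. Singly described DoGs were the 8 highest and 4 lowest called changes in the SERIPH 2nd step, the 5 highest and 5 lowest called between the SERIPH fractions under OS+CHX, the 3 highest and 3 lowest for hiAGPC against conventional and for the 2nd step against hiAGPC, the 5 longest, up to 6 listed in most libraries, up to 5 listed only in control, and the highest of each family. A further 9 (CDK12, CDK17, DUSP4, DUSP16, MAPK8, PPP1R11, PPP1R13B, PPP1R15A and PPP6R3) were added after their values were seen. The name and values of 1 member, absent from the heat map and the plot of lengths, are not reported here, though it is in the counts. Alternatives were centring on library medians, pseudocounts of 0.01 and 1, a replicate block, a filter that kept mean FPKM of 0.1 or more, fits of 4 libraries, the adjusted p alone, libraries left out in turn, a listing in either replicate, a minimum length of 20 kb and the shorter replicate length. Members were also split by whether their region reached a protein-coding gene, an alternative chosen after seeing the data.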

Additional observations from a re-analysis of the deposited data

Results flagged for a closer look

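For 32 of the 42 DoGs described singly, the change under OS+CHX differed between the SERIPH fractions by the test of that difference in limma (adjusted p under 0.05 and an absolute log2 difference of at least 1). The values are the log2 change in the 2nd step minus that in the 1st step. In 29 DoGs the change was larger in the 2nd step, beside 72.9% of all DoGs. The difference was PPP4C (3.07), PRKD2 (2.94), CSNK1A1 (2.81), MAP2K3 (2.75), PPP1R15B (2.72), DYRK1B (2.67) and DYRK1A (2.61). It was CAMK2B (2.42), PRKAR1A (2.37), RPS6KB1 (2.32), DUSP4 (2.30), PPP1R11 (2.25), MAP3K3 (2.24), CDK12 (2.24), MAPK9 (2.21), STK17B (2.20), PTPRS (2.20), PPP1R10 (2.18), PPP2R2A (2.16), CSNK1E (2.14) and PPP6R3 (2.02). It was PPP1R15A (1.97), CDK10 (1.96), DUSP8 (1.92), PPM1D (1.88), MAPK8 (1.43), CDK17 (1.29), DUSP5 (1.26) and WNK1 (1.08). In 3 DoGs it was the other way, with DUSP11 (-1.22), PPP2R1B (-1.28) and STK33 (-2.08), beside 4.21% of all DoGs. These differences carry the limit of entry given for the fractions in the results. No group had enough libraries for a search for single libraries apart from the rest.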

How the results depend on the processing

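Counts below are members called higher and lower under OS+CHX unless said otherwise. With each library centred on its median they were 17 and 20 in the SERIPH 2nd step, 11 and 18 in hiAGPC, 9 and 10 in the 1st step, 8 and 12 in conventional, 6 and 11 for the 2nd against the 1st step, 7 and 5 for the same in control, 0 and 8 for hiAGPC against conventional, 0 and 3 for the 2nd step against hiAGPC, and 4 and 17 for the difference of changes. With a pseudocount of 1 they were, in that order, 22 and 0, 10 and 0, 1 and 0, 1 and 0, 15 and 0, 0 and 0, 5 and 0, 1 and 0, and 16 and 0. With 0.01 they were 37 and 8 in the 1st step, 39 and 9 in conventional, 25 and 6 between the fractions in control, and 11 and 3 for the 2nd step against hiAGPC, and those lower were 4 for the 2nd against the 1st step and 1 for hiAGPC against conventional. By the adjusted p alone they were 43 and 18 in the 1st step, 43 and 18 in conventional, 34 and 8 between the fractions in control and 53 and 3 for the 2nd step against hiAGPC, and those lower were 10 in hiAGPC, 4 for the 2nd against the 1st step and 3 for hiAGPC against conventional. The causes of these shifts were not tested.

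Leaving out 1 library at a time gave 58 to 60 higher and 6 to 7 lower in the 2nd step, 53 to 56 and 5 to 6 in hiAGPC, 19 to 22 and 1 to 6 in the 1st step, 17 to 23 and 5 to 6 in conventional, 62 to 65 and 2 to 4 for the 2nd against the 1st step, 9 to 12 and 2 to 3 for the same in control, 54 to 57 and 0 to 1 for hiAGPC against conventional, 6 to 8 and 0 to 2 for the 2nd step against hiAGPC, and 55 to 57 and 3 to 5 for the difference of changes. The lone sample left in a group was assumed to vary like the other groups. The numbers lower moved by over 1.5 times in the 1st step without control replicate 1 (4), OS+CHX replicate 1 (6) or OS+CHX replicate 2 (1), for the 2nd against the 1st step without 1st-step replicate 1 (4), for hiAGPC against conventional without conventional replicate 2 (1), for the 2nd step against hiAGPC without 2nd-step replicate 1 (0), 2nd-step replicate 2 (2) or hiAGPC replicate 1 (2), and for the difference of changes without OS+CHX 1st-step replicate 2 (5).

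Of 96 pairs of a singly described DoG and a comparison, 24 changed sign after centring, 34 lost their call and 10 gained one. For the OS+CHX change in the 2nd step the centred values were CDK1 -2.15, CDK17 -1.38, CSNK1E -0.79, DUSP8 -0.53, MAP3K3 -0.11, MAPK8 -0.042, MAPK9 -0.49, PPM1D -0.80 and WNK1 -1.65. For the 2nd against the 1st step under OS+CHX they were CDK5RAP1 -1.40, CSNK1G2 -1.20, DUSP16 -1.68, DUSP22 -1.89, DUSP5 -0.67, MAP3K4 -0.87, MAPK8 -0.057, PPP1R11 -0.81, PPP1R13B -1.72, PPP1R15A -0.92, PPP2R2A -0.46, PPP6R3 -1.21, PRKDC -0.96, PTPRF -0.64 and STK33 -1.93. Without control 2nd-step replicate 2 or OS+CHX 2nd-step replicate 2, the change of CDK1 was -0.031 and -0.0764 (range up to 0.26 over the libraries left out), and without OS+CHX 2nd-step replicate 1 DUSP22 differed by -0.17 between the fractions (range up to 0.36). Calls were lost without OS+CHX 1st-step replicate 2 by MAP3K4 (0.68) and without OS+CHX 2nd-step replicate 2 by PRKDC (0.93), both between the fractions, and without OS+CHX 2nd-step replicate 1 by PPP1R15A (0.97) between the fractions and PPP2R1B (-0.99) against hiAGPC. A pseudocount of 1 ended 41 calls.

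With the replicate block, 60 members were higher and 6 lower in the 2nd step, and 96 of the 96 pairs stayed on their side of the threshold, as they did in fits of 4 libraries and with a mean FPKM of at least 0.1. With the block, the numbers higher were 19 in the 1st step, 20 in conventional and 10 for the 2nd against the 1st step in control, and the other counts did not move.

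With a minimum length of 20 kb, members listed in both replicates were 1 in control conventional, 1 in control 1st-step, 2 in control hiAGPC, 4 in control 2nd-step, 3 in OS+CHX conventional and 2 in OS+CHX 1st-step libraries. At the minimum of 10 kb, 13 were listed in either replicate of the OS+CHX 1st step. The median length ratio was 1.2 without replicate 2 and 1.5 without replicate 1. FPKM was listed in steps of 0.01 and depth per library was not known, so low control values carry a rounding error that is not in the SE.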
